A study of Rattus norvegicus with 8 samples.

Results

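The genes described here are the chemokines, chemokine receptors and lymphotoxins that organise lymphoid follicles: the ligands Ccl19, Ccl20, Ccl21 and Cxcl13, the receptors Cxcr5, Ccr6 and Ccr7, and the lymphotoxins Lta and Ltb. They were chosen by name, and a probe was taken as theirs when the identifier that the array files give for it belonged to the current rat gene of that name. All 9 had a probe, and all 9 were among the 19899 genes tested. Ccl20 had a pair of probes and the others 1 each, every probe being printed on 2 spots of an array. The signals came from 16 female Wistar rats, 6 weeks old, with a piece taken from the middle of the colon, 4 rats for each of 4 diets: a reference diet (REF), a cocoa diet (C10), a cocoa fiber diet (CF) and an inulin diet (I). The rats carried no genetic change and differed by diet alone as far as the labels go. Each of 8 two-colour Agilent arrays took the labelled RNA of 2 rats of different diets, 1 in Cy5 and the other in Cy3, so that by the labels each rat was measured once. The methods, however, describe dye swaps of each RNA. If an RNA was on more than 1 array, n = 4 and the standard errors given here would not stand for separate animals. The question was whether the 4 diets differed in these genes beyond the difference between colon pieces of rats on the same diet.

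Lymphoid follicles of the gut wall are clusters of B cells with follicular dendritic cells, T cells at their edge and an epithelium above them that samples the lumen. Lymphotoxin made by lymphoid cells signals to stromal cells through the lymphotoxin beta receptor and the NF-kB pathway, and the stroma answers with chemokines that draw in more lymphocytes. Cxcl13 attracts B cells through Cxcr5, Ccl19 and Ccl21 attract T cells and dendritic cells through Ccr7, and Ccl20 from the epithelium attracts Ccr6-bearing cells. In the colon the follicles are scattered, and a short piece of the wall can contain such tissue or not. The RNA was that of the whole piece, so that fewer cells of a type and less RNA per cell cannot be told apart.

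Promoter sequences from RefSeq (build GRCr8) were available for 7 of the 9 genes and are shown for 5 of them, Ccl19 and Cxcl13 because their signals differed most between rats relative to other ligands of the set, and Ccl20, Lta and Ltb because a kappaB motif, the DNA element that NF-kB recognises, was found in them. Each is the 150 bases just before the annotated start of the gene, 5′ to 3′ on the strand of the gene. Capitals mark kappaB matches on either strand and matches to TATAAA, and no 2 matches overlap. The windows lie at chr5:61761165-61761314 (minus strand) for Ccl19, chr14:13917921-13918070 (minus) for Cxcl13, chr9:91837009-91837158 (plus) for Ccl20, chr20:3623377-3623526 (plus) for Lta and chr20:3634055-3634204 (minus) for Ltb.
Ccl19: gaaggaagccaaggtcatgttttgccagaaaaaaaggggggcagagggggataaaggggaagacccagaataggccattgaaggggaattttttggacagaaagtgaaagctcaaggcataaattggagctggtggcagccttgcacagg
Cxcl13: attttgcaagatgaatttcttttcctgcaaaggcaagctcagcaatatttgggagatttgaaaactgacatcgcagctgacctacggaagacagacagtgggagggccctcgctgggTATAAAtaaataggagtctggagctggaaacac
Ccl20: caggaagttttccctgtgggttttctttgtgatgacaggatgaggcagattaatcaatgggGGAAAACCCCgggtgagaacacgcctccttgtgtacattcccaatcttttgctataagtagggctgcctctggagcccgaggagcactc
Lta: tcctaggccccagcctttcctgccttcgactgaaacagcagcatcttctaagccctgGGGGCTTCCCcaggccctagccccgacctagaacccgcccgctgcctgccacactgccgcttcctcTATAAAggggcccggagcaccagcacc
Ltb: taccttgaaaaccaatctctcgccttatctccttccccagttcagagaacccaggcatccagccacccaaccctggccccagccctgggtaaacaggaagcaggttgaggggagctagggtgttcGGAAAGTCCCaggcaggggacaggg
The kappaB motif was searched on both strands of the 250 bases before the start. It was present in 3 of the 7 genes, and 3.54% of the 33469 rat promoters of this length held it. TATAAA, searched in the same way, was present in Cxcl13 and Lta and in 12.9% of all promoters. These matches describe the letters of the windows and were not measured as binding.

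Signals are given as normalized log2 signals, so that a difference of 1 is a 2-fold difference, and they compare rats within a gene but not one gene with another. A spot was well above background where the scanner software marked it so. This was the case for 68.6 to 75.3% of the spots of a rat in Cy3 and for 74.3 to 83.9% in Cy5, with no saturated spot. Ccl19, Ccl20, Ccl21, Cxcl13, Ccr6, Lta and Ltb were well above background in all 16 rats, Ccr7 in 12 and Cxcr5 in only 5, 1 or 2 of each diet. The methods place the pieces in the middle of the colon, which single genes do not establish for every piece. Epcam, an epithelial adhesion molecule, ranged from 14.57 to 15.54, and Hoxb13, a gene of the hindmost gut, had a median of 13.67. The pieces were not all alike, however. C10 rat 1 had a mean over 6 smooth muscle genes of 12.13 where the other 3 C10 rats had 14.47 to 14.59, and Hoxb13 was as low as 6.60 in REF rat 4 and as high as 14.88 in C10 rat 4.

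Among the ligands, Ccl19 differed most from rat to rat. Its signal was 9.75, 7.25, 14.02 and 7.09 in REF rats 1 to 4, 14.20, 7.29, 12.33 and 8.96 in C10 rats, 12.44, 7.45, 14.48 and 8.21 in CF rats, and 14.56, 7.55, 13.32 and 7.66 in I rats. Every diet thus held rats near the bottom and rats near the top of the range, which spanned 177-fold from REF rat 4 to I rat 1, and the 4 diets overlapped almost completely. The means were 9.53 ± 3.23 in REF, 10.695 ± 3.14 in C10, 10.64 ± 3.37 in CF and 10.77 ± 3.69 in I (SD, n = 4). The same split was present before any normalization, with median spot signals of 44657 in I rat 1 and 212.5 in REF rat 4, both in Cy5.

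Cxcl13, the B cell attractant, was 7.58, 7.53, 10.63 and 6.99 in REF rats 1 to 4, 10.94, 7.65, 9.74 and 8.58 in C10 rats, 9.42, 7.21, 11.49 and 8.66 in CF rats, and 11.27, 7.48, 10.27 and 7.17 in I rats. The rats with high Ccl19 were those with high Cxcl13, and again each diet held both. The exception within REF was rat 1, whose Cxcl13 lay with the low rats and whose Ccl19 lay between. The diet means were 8.18 ± 1.66 in REF, 9.23 ± 1.42 in C10, 9.20 ± 1.79 in CF and 9.05 ± 2.04 in I (SD, n = 4).

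Ccl21, the other Ccr7 ligand, covered a narrower range, from 10.80 in C10 rat 4 to 13.997 in I rat 1, a 9.15-fold range. Its diet means were 11.75 ± 0.92 in REF, 11.81 ± 0.99 in C10, 12.07 ± 1.29 in CF and 12.44 ± 1.31 in I (SD, n = 4). REF rat 1 had the lowest Ccl21 of its diet, at 11.14. The genes of Ccl19 and Ccl21 are neighbours on one rat chromosome, and a close copy of Ccl21, if present, could share its probe.

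Ccl20, the ligand of Ccr6, followed another order. It was 9.50, 8.93, 10.16 and 9.34 in REF rats 1 to 4, 9.87, 8.88, 9.50 and 8.27 in C10 rats, 9.14, 10.04, 10.87 and 8.997 in CF rats, and 9.77, 10.0004, 10.08 and 10.26 in I rats. The 4 I rats were close together and at the upper end, the CF rats were spread from low to the highest value of all, and 3 of 4 C10 rats lay below every I rat. Its means were 9.48 ± 0.51 in REF, 9.13 ± 0.71 in C10, 9.76 ± 0.87 in CF and 10.03 ± 0.20 in I (SD, n = 4). The other Ccl20 probe followed this one closely (Pearson r = 0.997 over the 16 rats).

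The receptors split in the manner of Ccl19. Ccr6, carried by B cells and by some T cells and innate lymphoid cells, ranged from 7.14 in C10 rat 4 to 11.01 in REF rat 3, with diet means of 8.67 ± 1.59 in REF, 8.73 ± 1.70 in C10, 8.88 ± 1.53 in CF and 9.09 ± 1.51 in I (SD, n = 4). Ccr7, the receptor of naive T cells and mature dendritic cells, ranged from 6.11 in REF rat 2 to 7.87 in C10 rat 1. Cxcr5, the receptor of follicular B and T helper cells, lay between 6.06 and 6.85, and the 11 rats not well above background for it reached at most 6.38. Ratios for Cxcr5, and for the low rats of Ccr7, are therefore compressed by the background.

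The lymphotoxins did the same. Ltb, the membrane subunit, was 9.87, 9.31, 12.46 and 9.49 in REF rats 1 to 4, 12.83, 9.21, 11.57 and 9.16 in C10 rats, 10.96, 9.66, 12.92 and 9.32 in CF rats, and 12.80, 9.67, 11.94 and 9.71 in I rats. Within every diet the rats fell apart into high and low ones, with REF rat 1 only just above the low rats. Lta, the soluble subunit, ranged from 6.64 in CF rat 4 to 8.61 in C10 rat 1, a 3.93-fold range, and its diet means lay between 7.14 in REF and 7.42 in C10. The genes of Lta and Ltb lie close together, with Tnf as a neighbour.

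**Figure D1:**
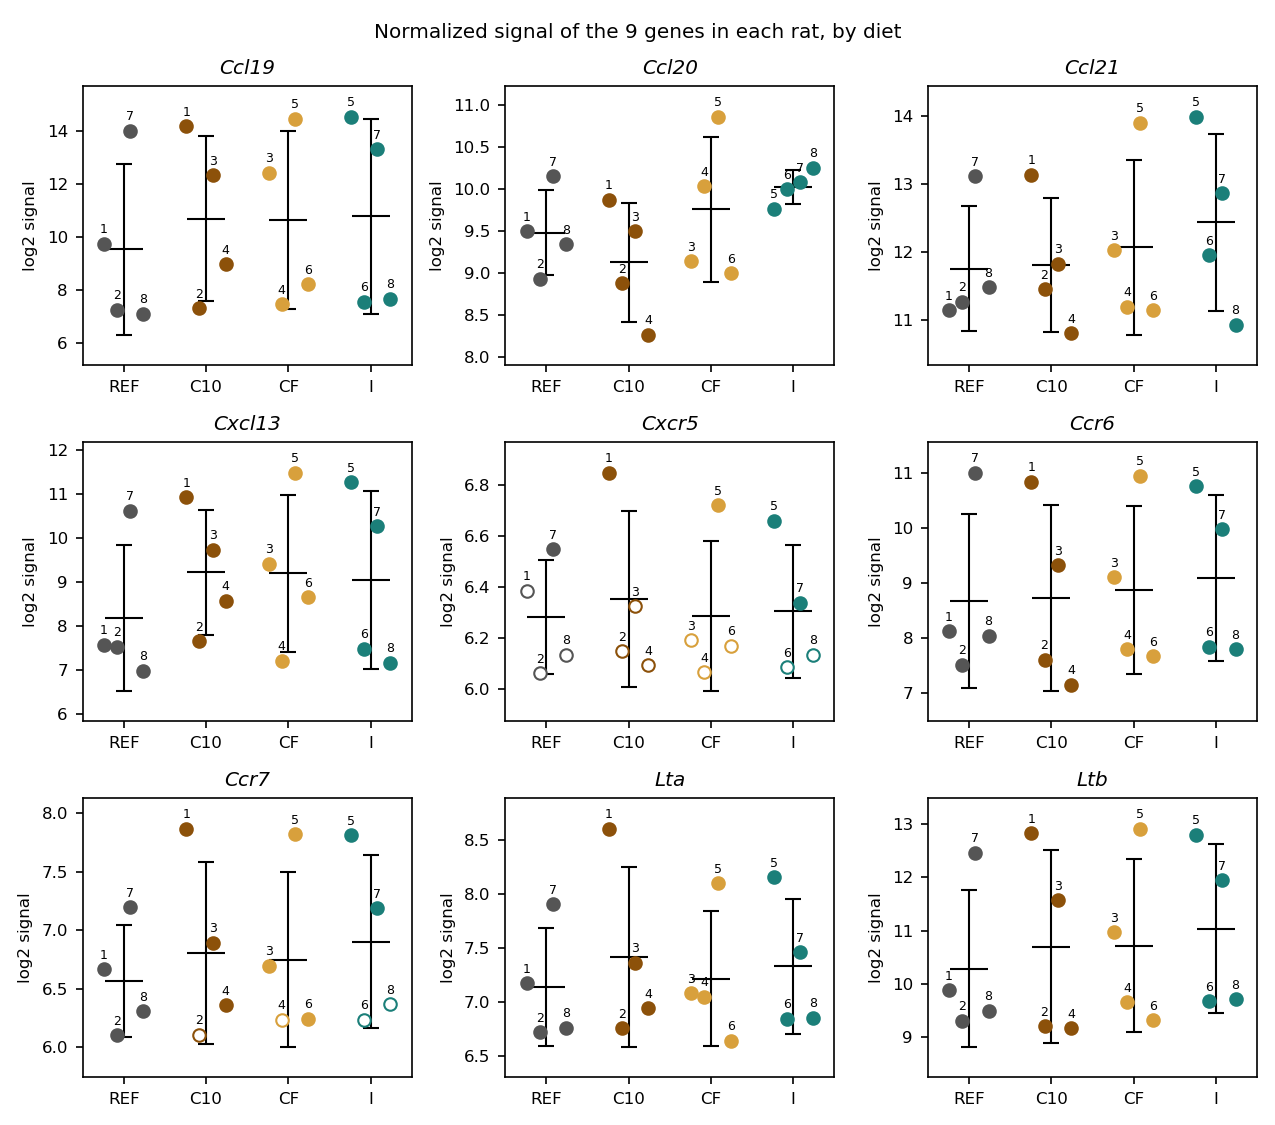
Normalized log2 signal (vertical axis) of the 9 genes in each of the 16 rats, grouped by diet (horizontal axis), with the array number above each point; open points were not well above background, and bars give the mean and SD of 4 rats. In Ccl19 every diet reaches from below 9 to above 12, and the 4 I rats are close together only in Ccl20.

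The rats that were high shared arrays. Apart from Ccl20, and with Cxcr5 left out, the 4 arrays with the highest means were arrays 1, 3, 5 and 7 for every gene. For Ccl19, Ccr6, Ccr7, Lta and Ltb all 8 rats on these arrays lay above all 8 rats on arrays 2, 4, 6 and 8. Cxcr5 had the same order, but its values were mostly not above background and it passed the filter through the high rats, so it is not counted. Ccl19, for example, was 9.75 to 14.56 on the former and 7.09 to 8.96 on the latter. This order was seen in the signals and not fixed by the labels, so it is given with no test: over all 19899 genes, 184 (0.925%) were ordered in that way and 89 (0.447%) in the opposite way. The 2 rats of an array often had close signals, although they had different diets and dyes. On array 5, Ccl19 differed by 0.08 between I rat 1 and CF rat 3, and on array 2 by 0.04 between REF rat 2 and C10 rat 2. The rats differed more on other arrays, by 1.51 for Ccl19 and 1.37 for Cxcl13 on array 4, by 1.18 for Cxcl13 on array 6 and, in the other direction of dye, by -1.03 for Ccr6 on array 7 (Cy5 minus Cy3). The differences were largest for these genes on array 1, where Ccl19 was higher by 4.45, Cxcl13 by 3.36 and Ltb by 2.95 in C10 rat 1 than in REF rat 1. Since each rat was on 1 array, a property of the array and a property of the 2 colon pieces on it cannot be told apart. Each diet had 2 rats on arrays 1, 3, 5 and 7 and 2 on the others. The diets were thus balanced in number but not in level. REF rat 1 was the lowest of the rats on arrays 1, 3, 5 and 7 in Ccl19 (9.75) and Ltb (9.87). Over the 9 genes the median difference from REF was 0.38 in C10, 0.34 in CF and 0.43 in I. Without REF rat 1 these medians were 0.09, 0.0009 and 0.07, and without REF rat 3 they were 0.63, 0.74 and 0.97.

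**Figure D2:**
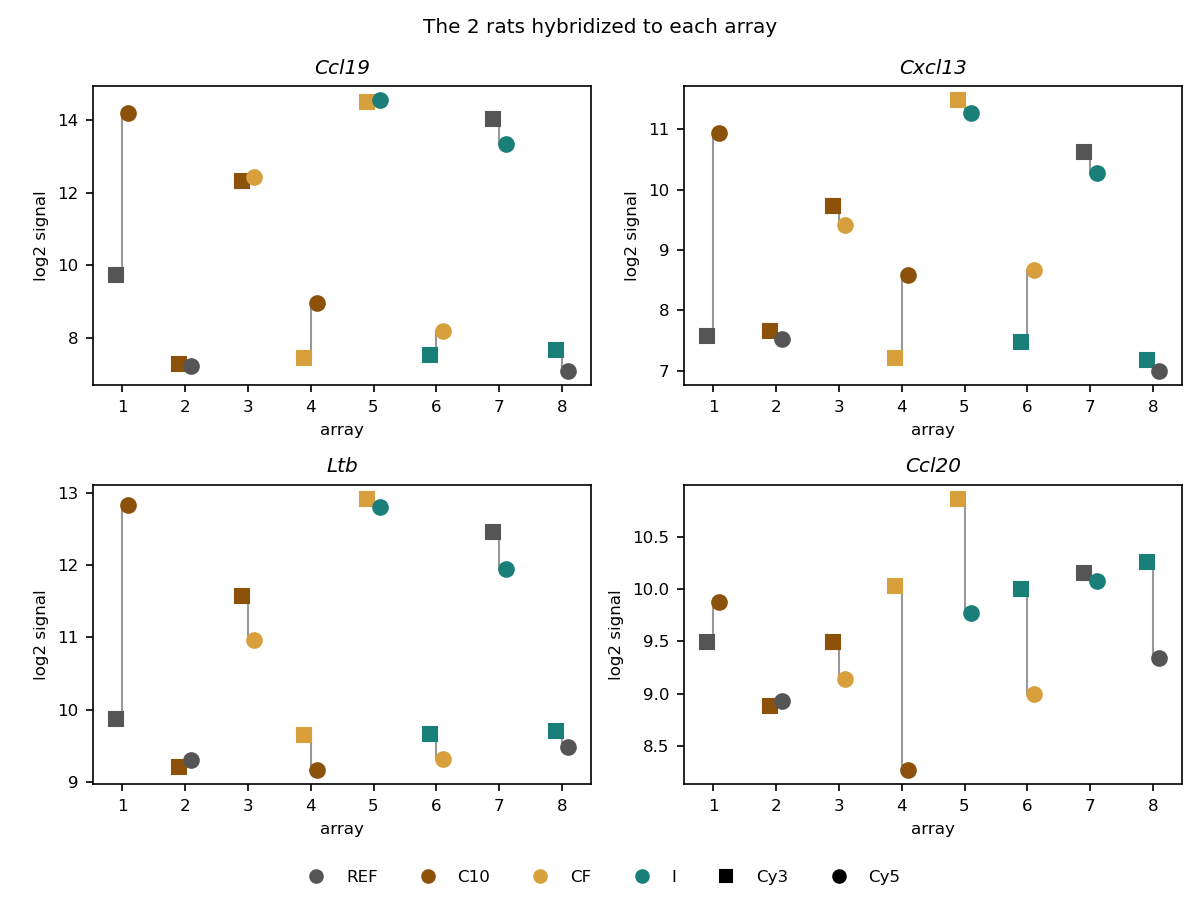
Normalized log2 signal (vertical axis) of Ccl19, Cxcl13, Ltb and Ccl20 in the 2 rats of each array (horizontal axis), squares Cy3 and circles Cy5, coloured by diet and joined by a line. For Ccl19 the 2 rats of an array lie within 1.51 of each other except on array 1, where they are 4.45 apart, whereas Ccl20 has no such grouping.

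The variation was therefore divided into a part between diets, a part between arrays within diets and a part between the 2 rats of an array, after removal of the dye. Equal spread for every degree of freedom would give 21.4% to diet, 50% to array and 28.6% to the rats of an array, and the median gene had 19.4%, 61.5% and 15.0%. Ccl19 had 3.04% between diets, 93.6% between arrays and 3.33% between the rats of an array. The diet part was 7.78% for Cxcl13, 7.01% for Ccl21, 3.95% for Ccr7, 3.43% for Ltb, 3.23% for Lta, 1.41% for Ccr6 and 1.30% for Cxcr5. With 1 rat left out, the largest diet part of these 8 genes was between 11.8% for Cxcr5 and 27.9% for Cxcl13, with 16.9% for Ccl19 and 12.5% for Ccr6 without REF rat 3 and 19.2% for Ccl21 without I rat 4. Ccl20 had a larger diet part than equal spread would give, 35.4%. This share was 64.4% without C10 rat 1 and 11.6% with a term for the first or last 4 arrays, and the 27.9% of Cxcl13 was reached without REF rat 3. The signals of Ccl20 were not correlated between the rats of an array (spot correlation -0.01, against 0.57 to 0.89 for the other 8 and a median of 0.42 over all genes).

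The spread within diets was large in itself. The residual SD after diet and dye was 3.49 for Ccl19, above 99.99% of all genes tested, 1.78 for Cxcl13, 1.70 for Ltb, 1.65 for Ccr6 and 1.19 for Ccl21. It was 0.72 for Ccr7, 0.70 for Lta, 0.54 for Ccl20 and 0.30 for Cxcr5, against 0.16 for the median gene. The 90th percentile of all genes was 0.33, so 8 of the 9 genes lay above a limit that 10% of genes pass by definition, and Cxcr5, which was mostly near background, did not. The SD of the 4 diet means was 0.59 for Ccl19, 0.50 for Cxcl13 and 0.38 for Ccl20, and means of 4 rats vary less than single rats whether or not diets differ.

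**Figure D3:**
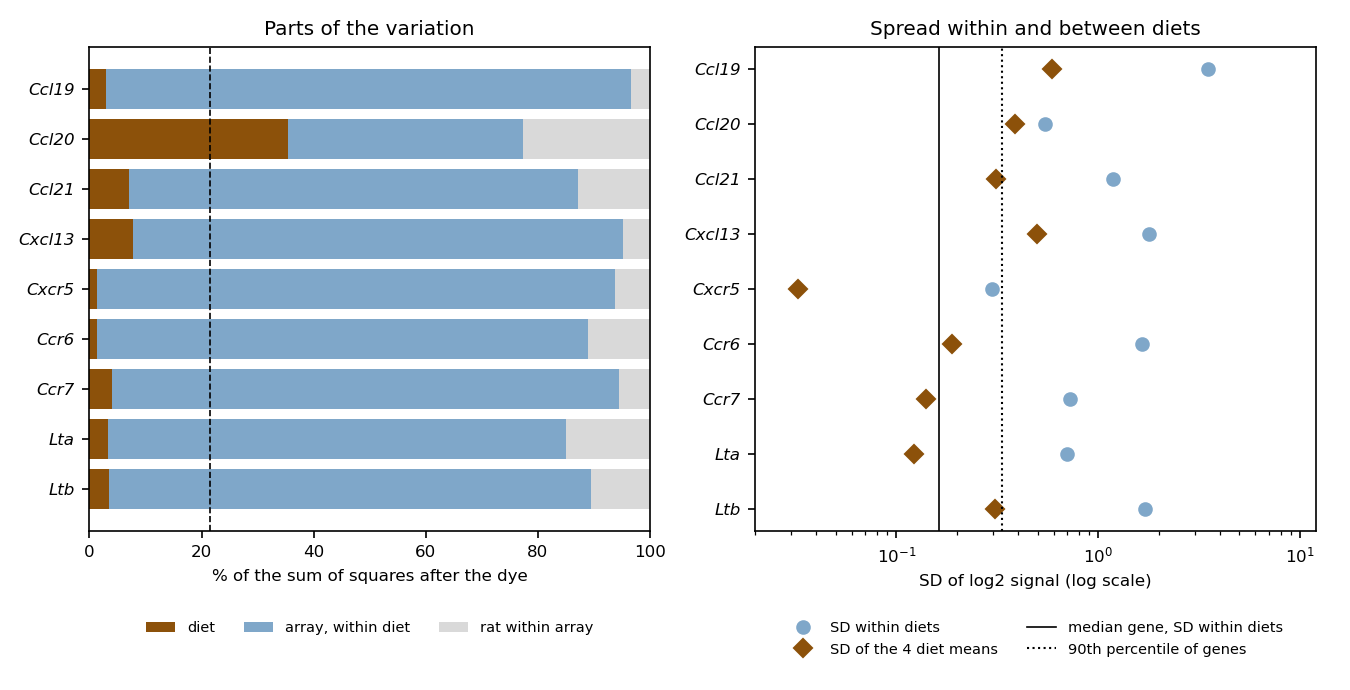
Left, share of the sum of squares (%) between diets, between arrays within diets and between the 2 rats of an array for each gene, the dashed line marking the 21.4% that equal spread would give to diet. Right, SD within diets (circles) and SD of the 4 diet means (diamonds) on a log axis, with the median (0.16) and 90th percentile (0.33) of the SD within diets over all genes. The diet part is below the dashed line in 8 genes and above it in Ccl20.

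Against this spread, none of the 9 genes passed the test between any pair of diets. In C10 against REF, 0 of 9 passed limma's test (at least 2-fold, with an adjusted p under 0.05), where 0.226% of all genes did, and 0 of 9 had an unadjusted p below 0.05, where 18.5% of all genes did. Ccl19 was higher in C10 by 1.53 (SE 1.52, limma adjusted p = 0.642) with a 95% interval from -1.73 to 4.78, and the exact permutation test of 4 rats against 4 gave p = 0.60. Cxcl13 was higher by 1.35 (SE 0.80, limma adjusted p = 0.401) with an interval from -0.37 to 3.07. Changes of several-fold in either direction thus remained within the interval for Ccl19, and an 8-fold rise within that for Cxcl13, so that the data do not show that the diets were alike. The fit gives weight to differences within arrays, and on array 1 C10 rat 1 lay far above REF rat 1 for both genes. Without C10 rat 1 the Ccl19 difference was 0.35, and without C10 rat 2 it was 2.63. Without REF rat 3 the Cxcl13 difference was 1.97 (limma adjusted p = 0.111). With Hoxb13 as a covariate the Cxcl13 difference was 0.68 (SE 0.88, limma adjusted p = 0.835). A limma model of log ratios within arrays also called 0 of 9 genes in this comparison, as well as 0% of all genes, with 3 of 9 at an unadjusted p below 0.05, where 13.2% of all genes were. The other members ranged from -0.16 for Ccl20 to 0.70 for Ltb. The Ccl20 difference was -0.65 without C10 rat 1 and 0.15 without C10 rat 2. That of Ccr6, 0.43 with all rats, was -0.52 without C10 rat 1 and 1.02 without REF rat 3. Over the set the median was 0.38 with 1 of 9 lower, and over all genes 0.01. Without C10 rat 1 the median of the set was -0.14 with 7 of 9 lower, and without REF rat 1 it was 0.09 with 3 of 9 lower. It moved the other way without C10 rat 2 (0.65), C10 rat 4 (0.59) or REF rat 3 (0.63).

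CF against REF called 0 of 9 genes and 0% of all genes, with 0 of 9 and 7.18% at an unadjusted p below 0.05 in limma. The differences lay between 0.04 for Cxcr5 and 1.01 for Ccl19 (SE 1.66, limma adjusted p = 0.940). The Ccl19 value was 0.07 without CF rat 3 and 2.36 without REF rat 3. CF and REF rats shared no array, so their difference rests on C10 and I to link the arrays. In I against REF the counts were again 0 of 9 and 0%, with 0 of 9 and 6.4% unadjusted, and the differences lay between -0.01 for Cxcr5 and 0.78 for Ccl19, the latter being -0.07 without REF rat 4 and 2.46 without REF rat 3. Ccl20 was higher in I by 0.53 (SE 0.30, limma adjusted p = 0.843) with an interval from -0.12 to 1.18. These 3 comparisons share the REF rats, and their values are not independent of each other.

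Between the treated diets, limma called 0 of 9 genes in C10 against CF, where 0.126% of all genes passed, 0 of 9 in C10 against I, where 0.176% passed, and 0 of 9 in CF against I, where 0% passed. At an unadjusted p below 0.05 the count was also 0 of 9 in each, against 14.4%, 12.9% and 3.32% of all genes. The smallest p-values belonged to Ccl20. It was lower in C10 than in I by a log2 difference of -0.69 (SE 0.33, limma adjusted p = 0.401, 95% interval -1.39 to 0.02), with p = 0.0571 in the exact permutation test, whose smallest possible p is 0.0286. It was lower in C10 than in CF by a log2 difference of -0.62 (SE 0.30, limma adjusted p = 0.365). Without C10 rat 1, the rat with little smooth muscle signal, these differences were -1.06 (limma adjusted p = 0.0553) and -0.91 (limma adjusted p = 0.0501). Without C10 rat 4, the rat with the lowest Ccl20, they shrank to -0.40 (limma adjusted p = 0.625) and -0.30 (limma adjusted p = 0.703). Over all alternatives the limma adjusted p lay between 0.0553 and 0.815 for C10 against I and between 0.0501 and 0.703 for C10 against CF. All C10 rats were on the first 4 arrays and all I rats on the last 4, so their difference rests on REF and CF to link the arrays. Neighbours in the order of Ccl20 means, C10, REF, CF and I, did not differ beyond their spread.

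**Figure D4:**
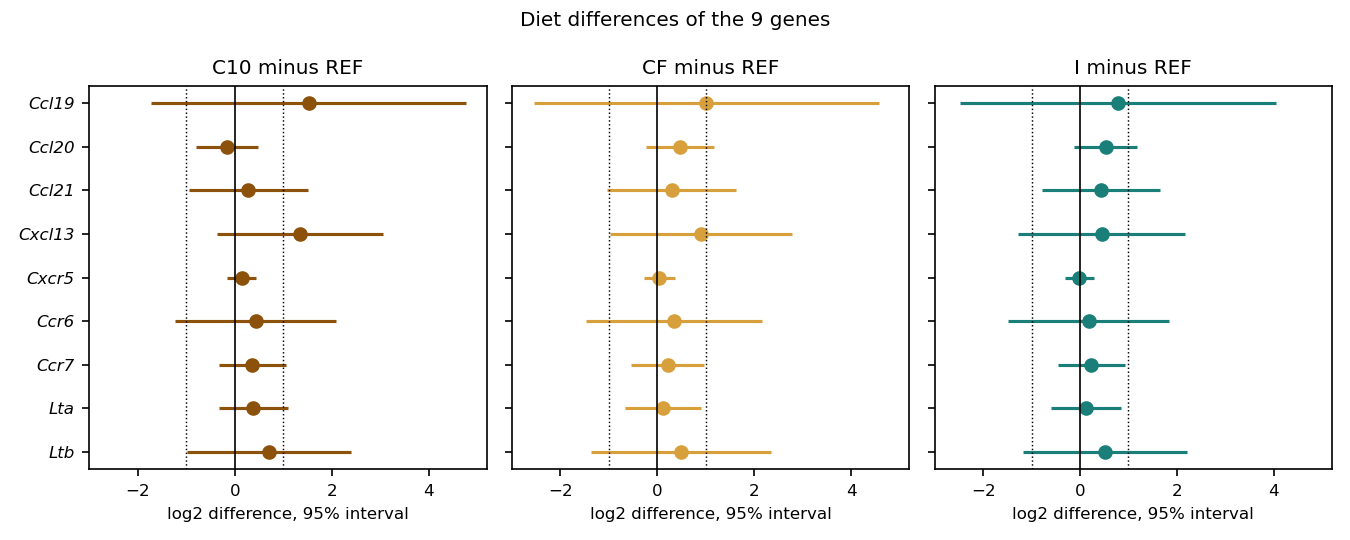
Log2 difference from REF (horizontal axis) of the 9 genes in C10, CF and I rats, estimated by limma with 95% intervals; dotted lines mark a 2-fold change in either direction. All 27 intervals include 0, and that of Ccl19 runs from -1.73 to 4.78 in C10.

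A test of any difference among the 4 diets gave the same picture. By limma's F test 0 of 9 genes had an adjusted p below 0.05, where 0.427% of all genes did, and 0 had an unadjusted p below 0.05, where 13.6% of all genes did. The lowest was Ccl20 (F = 2.14, unadjusted p = 0.141, limma adjusted p = 0.503), and Ccr6 had the highest (limma adjusted p = 0.985).

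Genes of other cell types and pathways were read from 16 lists of 133 genes, of which 114 had a probe and 105 were tested. None of the 105 was called in any of the 6 comparisons by limma, although 3 genes had an adjusted p below 0.05 with less than a 2-fold change. Chst4 was lower in C10 than in REF by a log2 difference of -0.66 (SE 0.15, limma adjusted p = 0.0443), and Adgre1, a macrophage gene, was lower in C10 than in CF by -0.82 (SE 0.17, limma adjusted p = 0.0474). Ccl28, an epithelial chemokine, was higher in C10 than in CF by 0.63 (SE 0.10, limma adjusted p = 0.0185) and than in I by 0.57 (SE 0.11, limma adjusted p = 0.0340). At an unadjusted p below 0.05 there were 20 of 105 (19%) in C10 against REF, where 18.5% of all genes were. There were 4 (3.81%) in CF against REF and 4 (3.81%) in I against REF, against 7.18% and 6.4% of all genes. Between the treated diets there were 14 (13.3%) in C10 against CF, 10 (9.52%) in C10 against I and 2 (1.9%) in CF against I, against 14.4%, 12.9% and 3.32%. Of the lymphotoxin signalling list, 3 of 11 genes tested lay above the 90th percentile of the spread within diets. Ltbr, the lymphotoxin beta receptor itself, stayed between 13.22 and 13.82 in all rats, while Tnf, the related cytokine, ranged from 7.41 to 9.41. The median difference of the list in C10 against REF was 0.10. The list had a median of 68.9% of its variation between arrays, against 61.5% over all genes. Among other gut chemokines (9 tested), Cxcl12 ranged from 12.06 to 12.98 and its receptor Cxcr4 from 7.58 to 9.99, and the list median in C10 against REF was 0.10.

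All 8 rats of arrays 1, 3, 5 and 7 lay above the other 8 in 7 of 8 B cell genes, 4 of 9 T cell genes and 2 of 9 homing genes. The same held for 3 of 5 follicular dendritic cell genes, 1 of 6 germinal centre genes, 1 of 11 lymphotoxin signalling genes and 0 of 7 M cell genes. Of all genes tested, 0.925% had this order and 0.447% the opposite one. The split of the arrays was itself seen in these data, and the mean of the B cell list divides the rats in the same way. The B cell count therefore follows in part from the split, and all these counts are description without a test. The mean of 8 B cell genes ranged from 6.82 in C10 rat 2 to 9.58 in CF rat 3, with Cd79b, a part of the B cell receptor, between 6.73 and 11.89. Of the 8, 7 lay above the 90th percentile of the spread within diets, and the diet part of the variation had a median of 2.69%. Pax5, a regulator of B cell identity, was the one that did not, with a range from 8.08 to 8.55. The 9 T cell genes ranged from 7.07 to 9.20 in their mean, with Cd3d between 8.32 and 11.76 and Cd3e between 6.30 and 8.64, and 8 of the 9 were above that percentile. Cd4, named after its values were seen, was not, and was lowest in C10 rat 1 (6.70). The 9 homing genes ranged from 7.66 to 9.65, and 7 were above it. Among them Madcam1, the address molecule of gut venules, lay between 8.44 and 10.72, Vcam1 between 9.16 and 11.14, and Glycam1, a mucin of high endothelial venules and a gene singled out here after its values were seen, between 6.39 and 12.98. Chst4, an enzyme that modifies homing ligands, ran the other way, from 7.38 in CF rat 3 to 8.62 in REF rat 4. The medians of these lists in C10 against REF were 0.21, 0.21 and 0.04.

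Genes known from cells particular to follicles follow. The 5 follicular dendritic cell genes ranged from 7.74 to 9.76 in their mean, and all 5 were above the 90th percentile of the spread within diets. Cr2, a complement receptor of these cells and of B cells, lay between 6.02 and 9.78 and was well above background in 10 rats, and Fcer2 lay between 6.18 and 7.53. Of 7 genes of M cells and the follicle-associated epithelium, 4 were above that percentile. Gp2, an uptake receptor of M cells, lay between 7.08 and 9.04 and Tnfaip2 between 7.08 and 8.54, while Anxa5, named after its values were seen, was lowest in C10 rat 1 (11.46) and highest in REF rat 2 (12.16). Of 6 germinal centre genes 3 were above the percentile. Bcl6, a repressor needed by germinal centre B cells, lay between 9.48 and 11.66. The medians in C10 against REF were 0.42, 0.14 and 0.16 for the 3 lists.

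The other lists are given by their ranges. The lymphatic endothelium genes, 3 tested, stayed between 9.19 and 9.78 in their mean, with Lyve1 from 8.61 to 9.34 and Pdpn from 11.26 to 12.25, and 0 of 3 lay above the 90th percentile of spread. The list of lymphoid tissue inducer and innate lymphoid cells rested on 3 genes, with Il7r from 6.70 to 7.83 and Id2 from 10.01 to 10.81. With 3 of its 8 genes tested, the list says little about these cells. The plasma cell genes, 6 tested, ranged from 9.70 in C10 rat 4 to 11.74 in I rat 1, with Mzb1 from 6.40 to 9.91 and Tnfrsf17 from 6.20 to 9.56. Their diet part had a median of 22.4%, and their median in C10 against REF was -0.12. The 7 myeloid genes had a median of -0.17 in C10 against REF, with Cd74 from 12.61 to 15.08 and Csf1r from 7.89 to 9.04.

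Genes that mark the position or the layers of the piece are given last. The 4 posterior Hox genes ranged from 6.68 in REF rat 4 to 10.51 in C10 rat 4, with Hoxb13 from 6.60 to 14.88 and Hoxd13 from 6.25 to 9.63. Both extreme rats were low in Ccl19, at 7.09 and 8.96. Their median in C10 against REF was 0.99. The 6 smooth muscle genes were all lower in C10 than in REF in the fit, with a median of -0.91, which became -0.27 without C10 rat 1 (5 of 6 lower). Myh11, for instance, was 13.12 in C10 rat 1 and up to 15.90 elsewhere, and Acta2 was 10.53 there and up to 12.41 elsewhere. The 4 adipocyte genes had a median of -0.60, with Adipoq from 6.73 to 10.698 and Fabp4 from 8.51 to 10.55. The 8 epithelial genes had a median of 0.07, with Epcam as above and Cdh1 from 13.55 to 14.50. Their mean was lowest in REF rat 3 (12.82), I rat 1 (12.94) and CF rat 3 (12.94), which were among the rats with the highest follicle genes, and highest in C10 rat 2 (14.05), where these were low. Other rats did not follow this. C10 rat 4, the lowest rat in Ccl20, Ccl21, Ccr6 and Ltb, also had a low epithelial mean (13.04). C10 rat 1, the highest in Ccr7 and Lta, was at 13.47, near the median of 13.48. The part of tissue layers and position in the values of the follicle genes was not tested beyond the fit with Hoxb13 as a covariate. In that fit Cxcl13 was 0.68 higher in C10 than in REF, against 1.35 without the covariate, and 0.48 higher in C10 than in I, against 0.90.

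**Figure D5:**
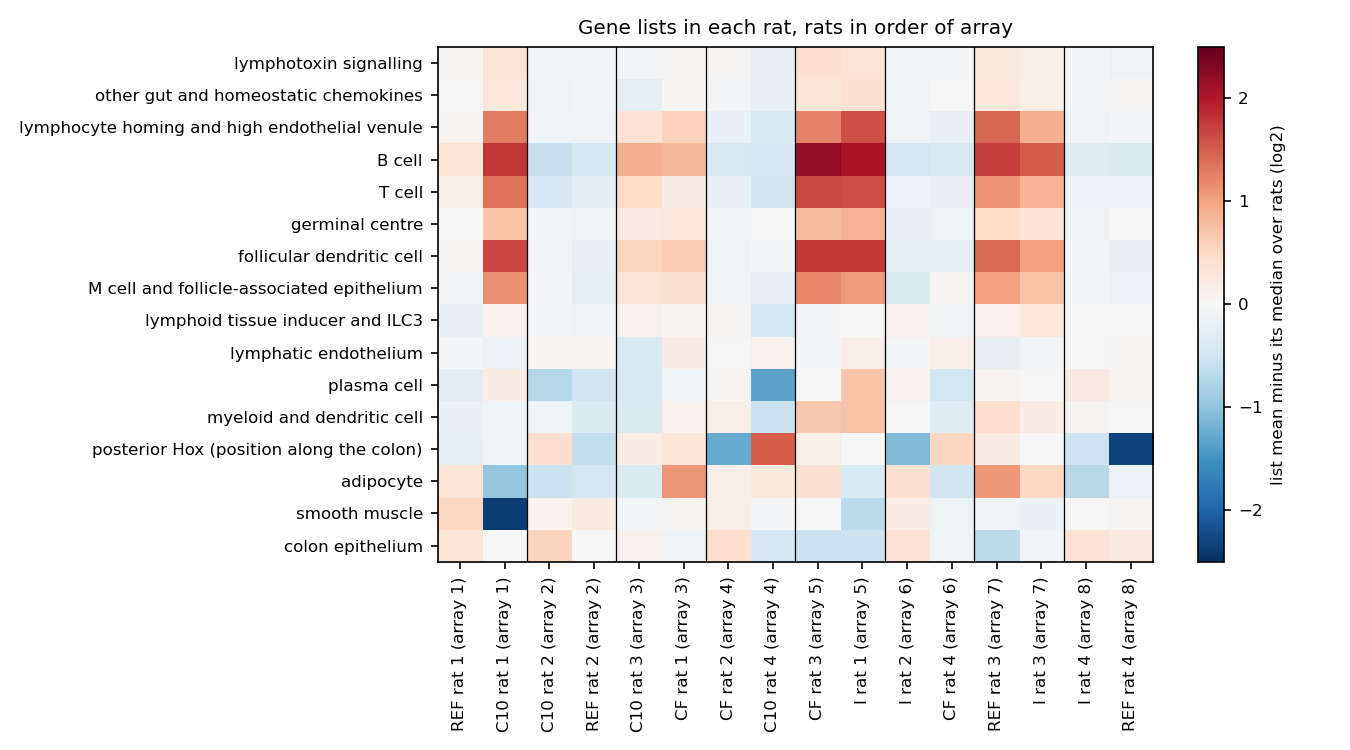
Mean log2 signal of each gene list (rows) in each rat (columns, in the order of the arrays, 2 rats per array), as the difference from the median of the list over the 16 rats. B cell, T cell, homing, follicular dendritic and M cell lists are high together on arrays 1, 3, 5 and 7, apart from REF rat 1, and the smooth muscle list is lowest in C10 rat 1.

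The follicle genes were then set beside the mean of the B cell list. The 16 rats fell into a pair of clusters by that mean, 8 rats from 7.71 to 9.58 on arrays 1, 3, 5 and 7 and 8 rats from 6.82 to 7.08 on the others, so no correlation with it over all rats is given. Within the upper cluster, Pearson's r was between 0.76 for Ccl20 and 0.99 for Ccl21 in the 8 genes other than Cxcr5, which is left out of these counts because it passed the filter through rats of this cluster. Cxcl13 had r = 0.967 (exact permutation p = 2.48e-05, adjusted 0.000446) and Spearman's rho = 1 (exact permutation p = 4.96e-05, adjusted 0.000893). Ccl19 had r = 0.956 (exact permutation p = 0.000124, adjusted 0.000744) and rho = 0.952 (exact permutation p = 0.00114, adjusted 0.00513). At an exact unadjusted p below 0.05 with positive r there were 8 of these 8 genes, where 7.53% of all genes were. With adjustment over all 18 relations, Cxcr5 included, 8 of the 8 passed an adjusted p below 0.05 for r and 7 for rho. Without the 2 rats farthest from the median, r remained between 0.68 for Ccl20 and 0.98 for Ccl21. In the lower cluster r ran from -0.43 for Ccl21 to 0.76 for Ccr7, and 1 of the 8 passed for r and 0 for rho. Ccr7, the one that did, fell to r = 0.44 without 2 rats. The clusters were formed by the same B cell mean, and within them the signals were not adjusted for diet or dye. The 8 rats of the upper cluster are the pairs of rats on arrays 1, 3, 5 and 7. Rats that share an array are not independent, so these p-values are too small and do not stand for separate animals.

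With the B cell list mean as a covariate 0 of 9 genes were called in any comparison. Of all genes, 0.236% were called in C10 against REF, 0.141% in C10 against CF and 0.236% in C10 against I, and 0% in each of the comparisons without C10. At an unadjusted p below 0.05 there were 2 of 9 in C10 against REF (Ccl19 and Cxcl13; 17.7% of all genes), 1 in C10 against CF (Ccl20; 15.9%) and 2 in C10 against I (Ccl20 and Cxcl13; 14.8%). In CF against REF, I against REF and CF against I there were 0 of 9, against 6.6%, 5.75% and 3.21% of all genes. The difference of Cxcl13 between C10 and REF was then 0.90 (SE 0.25, limma adjusted p = 0.0867), against an SE of 0.80 without the covariate, and over all alternatives its limma adjusted p lay between 0.0867 and 0.835. That of Ccl19 was 0.72 (SE 0.32, limma adjusted p = 0.262), with a range of 0.262 to 0.970.

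The genes whose diet- and dye-adjusted signals over the 16 rats were most like each member came from a search over all genes with a symbol, as Pearson's r, with arrays shared by rats and no test. A gene that separates the upper and the lower 8 rats reaches a high r from that split alone. Among those most like Ccl19 were Fcrla (r = 0.986), an Fc receptor-like protein of B cells that is also on the B cell list, and Ankrd13d (0.986). Those most like Cxcl13 were Gimap1 (0.992), Armh4 (0.988) and Sipa1 (0.985), and those most like Ccl21 were Dnase2 (0.980), Tnfaip8l2 (0.978) and Cyb561a3 (0.971). Ltb was followed most closely by Tbc1d10c (0.998), Sit1 (0.997) and Rhoh (0.997), and Lta by Btk (0.985), the kinase of B cell receptor signalling, Bst1 (0.982) and Stap1 (0.982). For the receptors, Ccr6 had Efnb3 (0.998), Arhgap45 (0.996) and B4galnt1 (0.996), and Ccr7 had Ly6d (0.995), Traf3ip3 (0.993) and Map4k1 (0.991). Those of Cxcr5 are not given, because it was mostly not above background and passed the filter through the high rats. Ccl20 had lower values, with Actn3 (0.924), C11h21orf91 (0.917) and Kiaa0040 (0.917).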

How the data were processed

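The RNA of the middle colon of 16 rats, 4 per diet, was hybridised to 8 two-colour Agilent arrays of 1 slide. The output of Agilent Feature Extraction (version 10.7.3.1 in the submitters' processing notes), as deposited by the authors, holds, per spot and dye, the median intensity and local background, not normalized, and processed intensities, used in 1 alternative. The authors' normalized series matrix stayed unused, since none of its 8 columns carries a name that occurs in the labels. The methods describe dye swaps of each RNA, whereas the labels give each rat 1 array and 1 dye, which was followed here.

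Intensities were processed with limma 3.58.1 (R 4.3.3, statmod 1.5.0): normexp (offset 50) for the background, spatial loess (span 0.4), intensity loess (span 0.3) and Aquantile between arrays. Control and outlier spots (604 to 896 per array) were left out, and replicate spots were averaged as log2 signals. The filter kept probes that 4 or more rats had well above background, 22537 of 30367, and each of 19899 genes was read from its brightest probe. Of 19109 probes with an mRNA identifier, 17935 matched a current symbol.

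Diet and dye were fitted with the array as a block (spot correlation 0.477), with p-values adjusted by Benjamini-Hochberg over all genes; calls needed at least 2-fold and an adjusted p under 0.05. Rank product, which the study used, was not run. The members, lists and rules were chosen with earlier results of these data known. Genes named are all members, the first 2 tested genes of each list, and the 3 genes most like each member, apart from a few that are not reported here; Pax5, Cd4, Glycam1, Anxa5, Chst4, Adgre1 and Ccl28 were named after their values were seen. The number of arrays limits the precision. The labels name 16 different RNAs, and the replicate numbers were given here. The smooth muscle list without C10 rat 1 was added after seeing the data. The fit was tested on simulated data. Alternatives covered background correction, normalization, filters, covariates, a model of log ratios within arrays, and leaving out each rat. Figures were drawn with matplotlib 3.10.9.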

Additional observations from a re-analysis of the deposited data

Results flagged for a closer look

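Of 100 groups of 4 rats examined (9 genes and 16 list means in 4 diets), 5 held a rat that stood far from the other 3, and chance would flag about 5% of groups. REF rat 3 had the highest Cxcl13 of its diet, 10.63 against 6.99 to 7.58 in the other REF rats. The same rat had the highest means of the homing and high endothelial venule list (9.48 against 7.93 to 8.09), the follicular dendritic cell list (9.40 against 7.78 to 8.04) and the M cell list (9.89 against 8.62 to 8.80). C10 rat 1 had the lowest smooth muscle list mean of its diet, 12.13 against 14.47 to 14.59.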

How the results depend on the processing

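The count of follicle genes called stayed at 0 in each of the 6 comparisons and in the F test under all 13 alternatives in processing and model and with each of the 16 rats left out in turn, although the setting that asked for signals well above background in all 16 rats tested 7 of the 9 genes, without Cxcr5 and Ccr7. The count above the 90th percentile of the spread within diets was 8 in the reported setting, and stayed between 7 and 9 wherever it was computed, which leaves out the fit with the B cell list and the model of log ratios within arrays. The planned correlation with the B cell list over all 16 rats is not reported, because the rats fell into separate clusters. The smallest limma adjusted p for any of the 9 genes was 0.0867 under the alternatives in processing and model and 0.0501 with a rat left out. Of 690 values of diet differences under the former, 40 changed sign, and of 864 with a rat left out, 104 did, 22 of them without C10 rat 1. Cxcr5, mostly near background, was the gene whose difference moved by more than the SD within diets, to 0.98 in C10 against REF with processed signals. With log ratios within arrays, Cxcl13 was higher in C10 than in REF by 1.67 (SE 0.46, limma adjusted p = 0.278) and Ccl19 by 1.92 (SE 0.72, limma adjusted p = 0.348). Over all genes, the 45 called in C10 against REF became 0 with log ratios within arrays, 15 with Hoxb13 as a covariate, 21 without a dye term, 71 without normalization between arrays, 74 without offset, 83 with processed signals, and 18 to 120 with a rat left out; the causes were not tested. No paired analysis was possible because the replicate numbers, given here in the order of the arrays, do not pair rats; the pairs of rats on an array enter through the array block and the model of log ratios within arrays.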
